A study of Macaca fascicularis and Macaca mulatta with 24 samples.

Results

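Ischemic right cortex was compared with non-ischemic left cortex in placebo-treated cynomolgus macaques, 6 h after the right middle cerebral artery was closed. The comparison takes the arrays whose titles give placebo, 6 h and a hemisphere, 3 right and 3 left, which are 6 of the 24 arrays of the series. Arrays of 1 animal number were paired as the right and left cortex of that animal, so that the question was which transcripts stood higher or lower in ischemic than in non-ischemic cortex of the same brain.

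Every animal of the series underwent the occlusion, so the left cortex comes from an operated animal and not from an unoperated control. Placebo was given intravenously 5 min after the occlusion. The right-left differences are also set beside those of 3 placebo animals sampled at 1 h and of 3 animals given 2.6 mg/kg TatNR2B9c instead of placebo and sampled at 6 h. TatNR2B9c is a cell-penetrating peptide that carries the end of an NMDA receptor subunit and separates that receptor from its scaffold protein PSD-95. Age and sex of the animals, and where in the territory of the artery a biopsy was taken, are not given in the sources used here.

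Closing the middle cerebral artery cuts off the blood supply of a large part of the lateral cortex. In the hours that follow, neurons lose their ion gradients and release glutamate, and NMDA receptors let calcium into the cell. Cortex is known to answer with transcripts of immediate early genes, heat shock proteins, hypoxia-inducible genes and inflammatory cytokines, while the translation of most proteins is held down.

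Each array measured sample RNA in Cy5 and a common reference RNA from rhesus macaque in Cy3. Every level below is log2 of Cy5 over Cy3, so it is a level relative to the reference and cannot be compared between genes. Every difference is right minus left on the same log2 scale, with 1 standing for a 2-fold difference. Biopsies hold many cell types, and fewer cells of a type cannot be told apart from less RNA per cell.

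The probes are 60 bases long and carry coordinates of the rhesus build rheMac2, whereas the animals are cynomolgus macaques. The parts of 5 probes below belong to genes on which the results turn: an acute transcription factor, a chemokine, a heat shock protein, a ribosomal protein and a transcript abundant in the reference. They read 5′ to 3′ in the sense of the transcript, and the capitals mark the stop codon that ends the coding sequence.
FOS, chr7:138397681-138397710, plus strand, first 30 bases: tgttactgatcatgcattgttgaggtggtc
CCL2, chr16:29553111-29553140, plus strand, first 30 bases: caaagaatttttgttttaacattccaatgc
HSPA1A, chr4:31479041-31479091, plus strand, 51 bases: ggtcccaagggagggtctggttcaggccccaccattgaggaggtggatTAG
RPS19, chr19:48184402-48184424, plus strand, first 23 bases: cagctgccaacaagaagcatTAG
FGA, chr5:146787579-146787638, minus strand, 60 bases: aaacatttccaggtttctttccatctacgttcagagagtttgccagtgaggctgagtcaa
The GC content of the whole probes ran from 23.3% for CCL2 to 60% for HSPA1A. HSPA1A has a near-identical copy, HSPA1B, and the array may read both.

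In Cy5, the share of probes well above background was 87.1% ± 5.8 (SD, n = 3) on the left arrays and 85.3% ± 1.7 on the right arrays. An exact permutation test within animals gave a two-sided p of 1, where 3 pairs can give no p below 0.25. Log ratios of any pair of the 6 arrays correlated across genes between 0.939 and 0.977. The arrays lay on 4 slides and were scanned on 2 days. Slide 4 alone held both sides, right 1 and left 2, and day 3 held all 3 right arrays and left 2, while left 1 and left 3 were scanned on day 2. Side and scan day therefore largely coincide. On slide 4, a single right array against the left array of another animal, 84 of the 88 genes whose differences are described kept the sign of their mean difference and 4 turned. Both arrays also enter that mean, and many of the 88 genes were named for the same sign in 3 of 3 animals. Agreement in sign was thus favoured in advance and is no separate check. For 15 of the 84 the value on slide 4 was at most 0.5 times the mean difference, and these are given beside the gene.

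The array of left cortex 2 and that of right cortex 3 stood apart from the rest of their groups in acute-response genes. Among 43 immediate early genes measured, 27 (62.8%) had left 2 and right 3 as their 2 highest arrays, against 647 (4.06%) of 15954 genes. The same held for 16 of 37 inflammatory genes (43.2%). These 2 arrays were chosen after the values were seen, so the shares describe the pattern and do not test it. Left 2 was the highest of the 6 arrays for 29 of the 43 immediate early genes (67.4%, against 12.7% of all genes). The label of left 2 is non-ischemic cortex, so in animal 2 these genes were higher on the non-ischemic side and in animal 3 on the ischemic side. Whether the samples of an animal were exchanged was not tested. Results that rest on these arrays are given with and without their animals.

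No gene passed the test of right against left. By limma with the animal as a block, 0 of 15954 genes (0%) had a Benjamini-Hochberg adjusted p under 0.05, and the smallest adjusted p was 0.936. At an unadjusted p under 0.05 there were 649 genes (4.07%), 208 higher (1.3%) and 441 lower (2.76%) on the right. On simulated data, 50 genes were altered at each size. The same fit called 4% of genes altered by a log2 of 0.5, 56% of those altered by 1, 80% at 2 and 100% at 3. These shares describe the simulated data and do not show that a real difference of that size would pass. A mean difference of at least 2-fold with the same sign in 3 of 3 animals was seen in 5 genes higher and 227 lower. None of these passed. The p-values and SEs rest on a spread pooled over all sets of animals in the series, not on that of these 3 animals alone. The words higher and lower below describe values that did not pass.

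The animals shared little of their right-left differences. The SD of the differences over genes was 0.56 in animal 1, 0.49 in animal 2 and 0.36 in animal 3, and 7.9%, 4.8% and 1.7% of genes differed at least 2-fold. Across the 15954 genes, which are not independent, the differences correlated at r = 0.24 between animals 1 and 2, at 0.0037 between 1 and 3 and at 0.01 between 2 and 3. In 25.5% of genes the sign was the same in 3 of 3 animals, 8.75% higher and 16.7% lower on the right, and in 12.8% of genes the 3 right arrays did not overlap with the 3 left arrays. The median difference over all genes was −0.05.

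**Figure D1:**
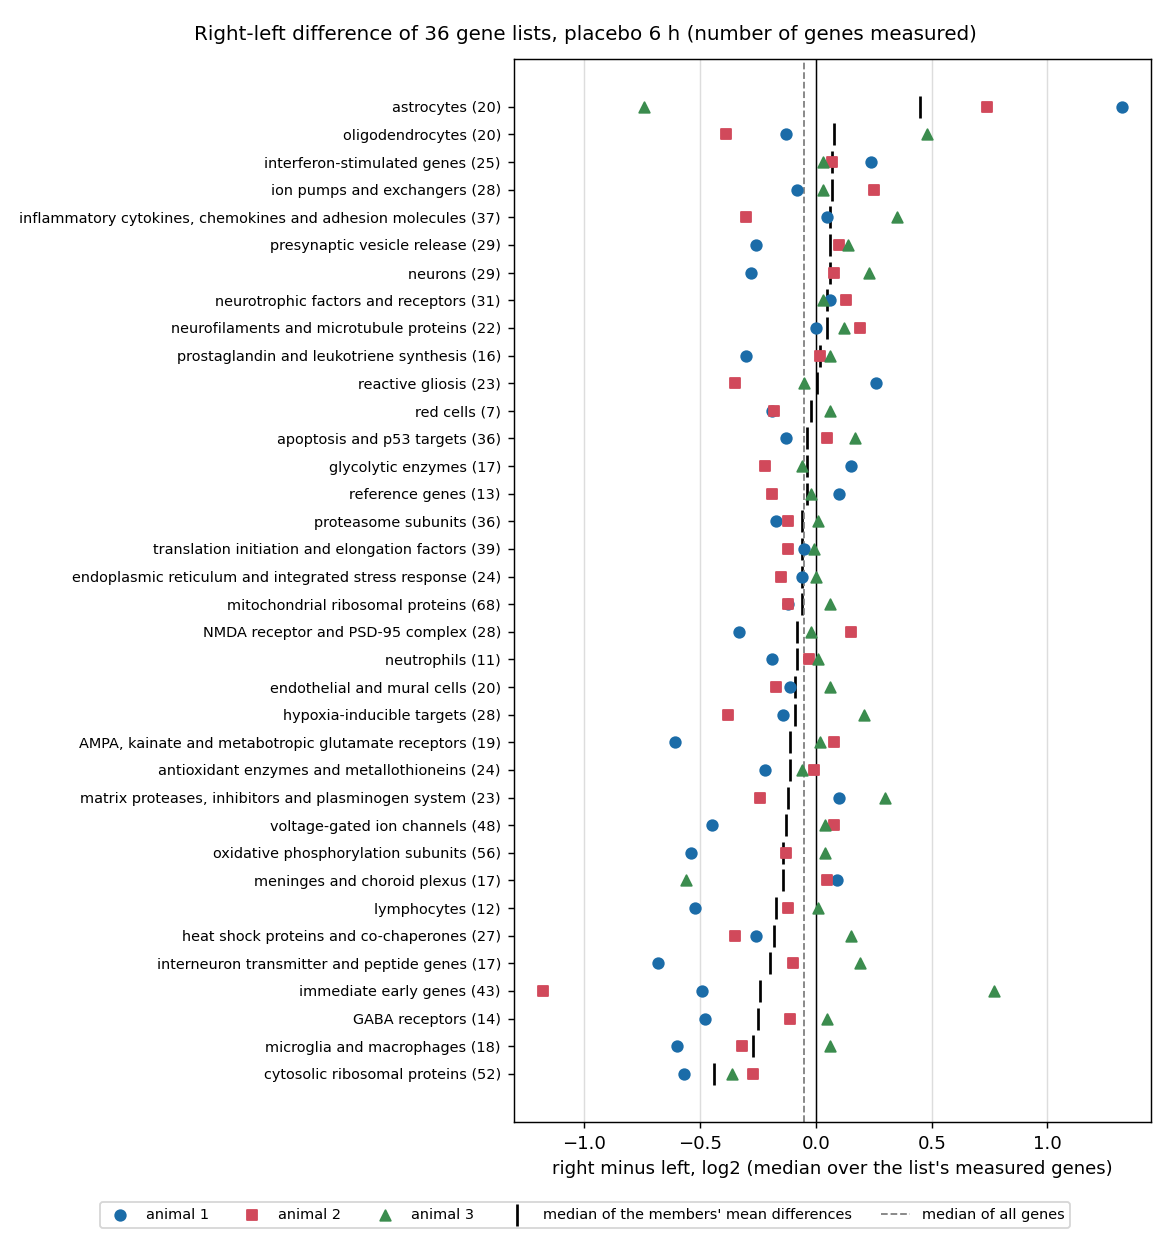
Median right minus left difference (log2) of 36 gene lists in each of 3 placebo animals at 6 h, with black bars for the median of the members' mean differences, the number of measured genes in brackets and a dashed line for the median of all genes at −0.05. The 3 animals lay on the same side of 0 for 6 lists, 3 above and 3 below, and lay farthest apart for immediate early genes and astrocyte markers.

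Immediate early genes, which neurons and other cells switch on within minutes of a stimulus, had differences of opposite sign in animals 2 and 3. FOS, a subunit of the AP-1 transcription factor, had levels of −1.31, 2.29 and −1.89 on left arrays 1, 2 and 3 and of −2.59, −3.13 and 1.13 on right arrays 1, 2 and 3. Left 2 and right 3 were high, the other 4 arrays were low, and the groups overlapped. The difference was −1.29, −5.42 and 3.03 in animals 1, 2 and 3, with a mean of −1.23 ± 1.29 (SE, limma adjusted p = 1). Without animal 2 the mean was 0.87, and without animal 3 it was −3.35. Cy5 brightness itself showed the pattern, with 34300 on left 2 and 14300 on right 3 against 714 to 6910 on the other arrays.

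NR4A1, DUSP1 and RGS2 were chosen as further examples after their values were seen. NR4A1, a nuclear receptor induced by activity, stood at −0.02, 2.81 and −0.3 on the left and at −0.76, −0.36 and 2.07 on the right. DUSP1, a phosphatase that switches off MAP kinases, stood at −2.89, −0.89 and −3.39 on the left and at −3.7, −3.93 and −1.35 on the right. RGS2, which dampens G-protein signalling, stood at −1.75, 1.18 and −2.23 on the left and at −1.5, −2.45 and 0.18 on the right. In all 3 genes left 2 was the highest array, right 3 the next, and the groups overlapped. The mean differences were −0.51 for NR4A1, −0.6 for DUSP1 and −0.32 for RGS2, and without animal 2 they were 0.82, 0.61 and 1.33.

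Over the 43 immediate early genes the median difference was −0.24, with medians of −0.49, −1.18 and 0.77 in animals 1, 2 and 3. Of these genes 1 was higher and 3 were lower in 3 of 3 animals, where 8.75% and 16.7% of all genes were. Without animal 2 the median was 0.17, with 12 genes higher (27.9%, against 18% of all genes) and 6 lower (14%, against 29.1%) in both remaining animals. Without animal 3 it was −0.9, with 26 of 43 genes lower in both (60.5%, against 35.6%). On slide 4, which sets right 1 against left 2, the median was −1.44, with 42 of 43 below 0, against 8992 of all 15954 genes. Left 2 is the array already described as high in these genes.

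KLF2 departed from this pattern. This transcription factor keeps endothelium quiescent, and its levels were −0.27, −0.39 and −0.74 on the left and −1.84, −1.61 and −0.82 on the right. All 3 right arrays lay below all 3 left arrays, which was so for 8.39% of genes, but right 3 and left 3 were close. The mean difference was −0.96 ± 0.28 (SE, unadjusted p = 0.00666, limma adjusted p = 1). KLF6, a related factor, differed by −0.63 ± 0.29 with overlapping groups.

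The high left 2 array was seen in part of the heat shock and hypoxia-inducible genes. It was the highest array for 10 of 27 heat shock genes (37%) and 7 of 28 hypoxia-inducible genes (25%), against 12.7% of all genes, and left 2 and right 3 were the 2 highest for 2 and 4 of them (7.41% and 14.3%, against 4.06%). HSPA1A, the inducible HSP70 chaperone, stood at 0.53, 3.08 and −0.34 on the left and at −0.03, −0.28 and 0.66 on the right, a difference of −0.97 ± 0.76. Its co-chaperone DNAJB1, chosen after its values were seen, was at 2.03 on left 2 and between −0.31 and 0.22 on the other arrays. ADM, a hypoxia-inducible peptide that widens vessels, stood at −1.32, 0.87 and −3.33 on the left and at −3.14, −3.0 and −0.28 on the right. HSPA1A and ADM were highest on left 2 and had groups that overlapped, and without animal 2 their differences were 0.22 and 0.62.

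Of 27 heat shock genes, 1 was higher (3.7%, against 8.75% of all genes) and 5 were lower (18.5%) in 3 of 3 animals, the latter near the 16.7% of all genes. Their median was −0.18. HSPD1, a chaperone of mitochondria, differed by −0.52 ± 0.3 and in animal 3 by only −0.00073. Of 24 genes of the endoplasmic reticulum and integrated stress response, 2 were higher (8.33%, against 8.75% of all genes) and 6 lower (25%, against 16.7%) in 3 of 3 animals, with a median of −0.06. HSPA5, the main chaperone of the endoplasmic reticulum, stood at 0.65, 1.33 and 0.29 on the left and at 0.2, 0.5 and 0.33 on the right, with left 2 again highest. Of 28 hypoxia-inducible genes 3 were higher and 6 lower (21.4%, against 16.7% of all genes) in 3 of 3 animals, with a median of −0.09.

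**Figure D2:**
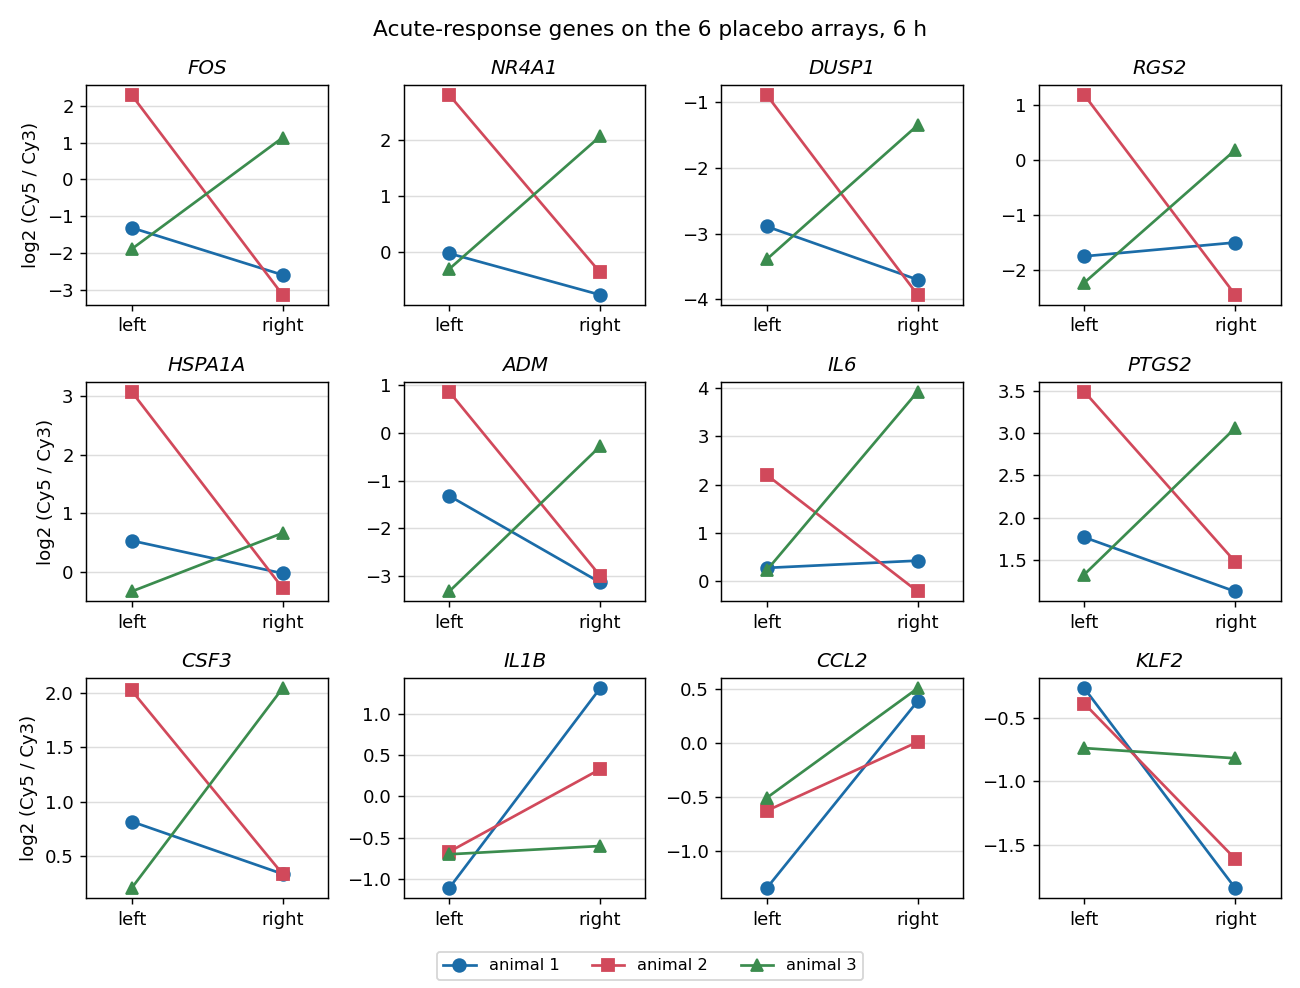
Levels (log2 Cy5 over Cy3) of 12 acute-response genes in the left and right cortex of 3 placebo animals at 6 h, with a line joining the sides of each animal. For FOS, NR4A1, DUSP1, RGS2, ADM, IL6, PTGS2 and CSF3 the left array of animal 2 and the right array of animal 3 were the 2 highest, while IL1B and CCL2 were higher and KLF2 lower on the right in each animal.

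Among inflammatory genes, CCL2 and IL1B had right levels above all left levels. CCL2, the chemokine that draws monocytes, stood at −1.35, −0.63 and −0.51 on the left and at 0.39, 0.01 and 0.51 on the right. The lowest right array, right 2, lay above the highest left array, left 3, so the groups did not overlap, which was so with right higher for 4.4% of all genes. The difference was 1.75, 0.64 and 1.02 in the 3 animals, with a mean of 1.14 ± 0.25 (SE, 2.2-fold, unadjusted p = 0.000985, limma adjusted p = 0.936). The signal was dim, with Cy5 brightness between 18.7 and 143, and 2 of 3 left arrays were well above background against 3 of 3 right arrays. The mean difference kept its sign in the 23 alternative settings that gave a value, between 0.34 and 3.08.

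IL1B, the pro-inflammatory cytokine interleukin-1 beta, stood at −1.11, −0.67 and −0.7 on the left and at 1.31, 0.33 and −0.6 on the right. Right 1 was highest and right 3 was barely above the left arrays. The difference was 2.43, 1.0 and 0.1 in the 3 animals, with a mean of 1.17 ± 0.46 (SE, unadjusted p = 0.029, limma adjusted p = 1), which lay between 0.55 and 1.98 in 24 alternative settings. IL1RN, the antagonist of the interleukin-1 receptor, stood at −3.02, −3.17 and −3.53 on the left and at −4.14, −3.77 and −3.59 on the right. Its right arrays lay below its left arrays, at a mean difference of −0.6 ± 0.67, where the SE pooled over the series exceeds the difference. The 3 animals themselves differed by −1.12, −0.61 and −0.07. The levels of IL1RN lie far below the reference, a property described further below.

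IL6, PTGS2 and CSF3 followed the 2 arrays that stood apart. IL6, a cytokine of acute inflammation, stood at 0.27, 2.2 and 0.22 on the left and at 0.42, −0.22 and 3.93 on the right. PTGS2, the inducible cyclooxygenase of prostaglandin synthesis, stood at 1.77, 3.49 and 1.33 on the left and at 1.13, 1.48 and 3.06 on the right. CSF3, the growth factor of neutrophils and chosen after its values were seen, stood at 0.82, 2.02 and 0.21 on the left and at 0.34, 0.34 and 2.04 on the right. The groups overlapped in each gene, with a mean difference of 0.48 ± 1.06 for IL6, −0.3 ± 0.67 for PTGS2 and −0.11 ± 0.56 for CSF3. Without animal 3 the difference of IL6 was −1.13, on slide 4 it was −1.78, and without animal 2 those of PTGS2 and CSF3 were 0.55 and 0.68.

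Of the 37 inflammatory genes measured, 5 were higher (13.5%, against 8.75% of all genes) and 1 was lower (2.7%, against 16.7%) in 3 of 3 animals, and the median was 0.06, with 0.05, −0.3 and 0.35 in the 3 animals. Without animal 2 the median was 0.21, with 17 higher in both remaining animals (45.9%, against 18% of all genes), and without animal 3 it was −0.14. The interferon-stimulated genes, the antiviral programme, had 7 of 25 higher (28%, against 8.75% of all genes) and 2 lower (8%, against 16.7%) in 3 of 3 animals and a median of 0.07. In 6 of them (24%, against 4.4%) all right arrays lay above all left arrays. On slide 4 the list lay at 0.13, with 14 genes above 0 and 11 below, where all genes lay at −0.05. On scan day 3, with 3 right arrays against left 2, the list lay at −0.02, with 12 above 0 and 13 below. All genes lay at −0.03 there, and 7227 were above 0 and 8727 below. IFIH1, a sensor of double-stranded RNA, was higher by 0.71, 0.68 and 0.74 in the 3 animals, with a mean of 0.71 ± 0.21 (SE, unadjusted p = 0.006, limma adjusted p = 1). IFIH1 was well above background in Cy5 on 3 of 3 left but 1 of 3 right arrays, and its sign turned to −0.57 with the software's processed signals and to −0.26 in Cy5 alone. IFI44 differed by 0.57 ± 0.26 and turned to −0.16 in Cy5 alone. On slide 4 IFIH1 differed by 0.27 and IFI44 by 0.28. PLA2G2A, a secreted phospholipase, differed by −1.38, −1.29 and −0.52, a mean of −1.07 ± 0.67.

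All 29 measured neuron markers and all 20 astrocyte, 20 oligodendrocyte and 18 microglia and macrophage markers were well above background on all 6 arrays, as were 92.6% of all genes and all 12 lymphocyte markers, so that this limit does not set cortex apart. The median level of the neuron list lay between 3.27 and 3.49 on the left and between 3.02 and 3.66 on the right, and its median difference was 0.06. Of these 29 genes 4 were higher (13.8%, against 8.75% of all genes) and 3 lower (10.3%, against 16.7%) in 3 of 3 animals. MAP2, a microtubule protein of dendrites, stood at 3.65, 3.12 and 3.05 on the left and at 2.31, 2.66 and 2.89 on the right, a mean of −0.65 ± 0.27, which turned to 0.63 with the processed signals. ENO2, the neuronal enolase, was higher by 0.71, 0.55 and 0.14, with overlapping groups, but its other probe had the opposite sign, and the mean of both probes differed by 0.04.

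Astrocyte markers differed most between animals of all 36 lists, by an SD of 1.06. The list's median level was 0.06, 1.01 and 2.16 on left arrays 1, 2 and 3 and 2.0, 1.68 and 1.27 on right arrays 1, 2 and 3. Left 1 was the lowest and left 3 the highest, so that the left arrays enclosed all right arrays. The difference was 1.32, 0.74 and −0.74 in the 3 animals, with a median of 0.45, and none of the 20 genes had the same sign in 3 of 3 animals. Without animal 1 the median was −0.09, and without animal 3 it was 1.03.

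Single astrocyte genes shared the order of the left arrays. SLC1A3, a glutamate transporter of astrocytes, stood at 1.79, 2.87 and 3.96 on the left and at 3.72, 3.93 and 3.23 on the right. KCNJ10, an inward rectifier potassium channel of astrocytes, stood at 0.98, 1.68 and 2.24 on the left and at 2.47, 2.29 and 2.25 on the right. In both genes left 1 was lowest and left 3 highest among the left arrays. The left 3 array lay above all right arrays for SLC1A3 but below all of them for KCNJ10, so the groups of KCNJ10 did not overlap. AQP4, the water channel of astrocyte endfeet, differed by 0.43 ± 0.5, and GFAP, their intermediate filament, by 0.0047 ± 0.38.

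Oligodendrocyte markers had their highest level on right 3 for 18 of 20 genes (90%, against 12.5% of all genes). The differences of the list were −0.13, −0.39 and 0.48 in the 3 animals. Right 3 thus combined high myelin transcripts with high immediate early genes, and whether the biopsies held unequal parts of white matter was not tested.

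Microglia and macrophage markers lay lower on the right in animals 1 and 2. Of 18 genes 1 was higher (5.56%, against 8.75% of all genes) and 8 were lower (44.4%, against 16.7%) in 3 of 3 animals. All right arrays lay below all left arrays in 6 of them (33.3%, against 8.39%). The medians were −0.6, −0.32 and 0.06 in the 3 animals and −0.27 for the mean, and the latter stayed below 0 in 24 of 24 alternative settings, between −0.47 and −0.16. CD74, the chaperone of class II antigen presentation, stood at −2.35, −2.82 and −3.51 on the left and at −3.85, −4.4 and −4.1 on the right. HLA-DRA, a class II chain, stood at −2.91, −3.72 and −4.9 on the left and at −5.05, −5.76 and −5.39 on the right. Both genes had groups that did not overlap, at −1.22 ± 0.74 for CD74 and −1.56 ± 0.92 for HLA-DRA, and both have levels far below the reference, a property described further below. The probe that the oldest annotation assigns to P2RY12, a purine receptor of resting microglia, differed by −0.65 ± 0.2 (unadjusted p = 0.00887, limma adjusted p = 1), but by −0.14 on slide 4.

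Neutrophil and red cell lists had medians of −0.08 and −0.02, near that of all genes. S100A9, a calcium-binding protein abundant in neutrophils, stood at −1.25, −2.29 and −2.74 on the left and at −2.85, −2.76 and −2.67 on the right. Of 11 neutrophil genes measured none was higher and 2 were lower in 3 of 3 animals (18.2%, against 16.7% of all genes). HBB, the beta chain of hemoglobin, stood at −1.12, −2.59 and −3.69 on the left and at −3.93, −5.3 and −4.02 on the right. The groups of HBB did not overlap, at −1.95 ± 0.68 (SE, unadjusted p = 0.0161, limma adjusted p = 1), while 4 of the 7 measured red cell genes had a mean difference below 0 and 3 above it.

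**Figure D3:**
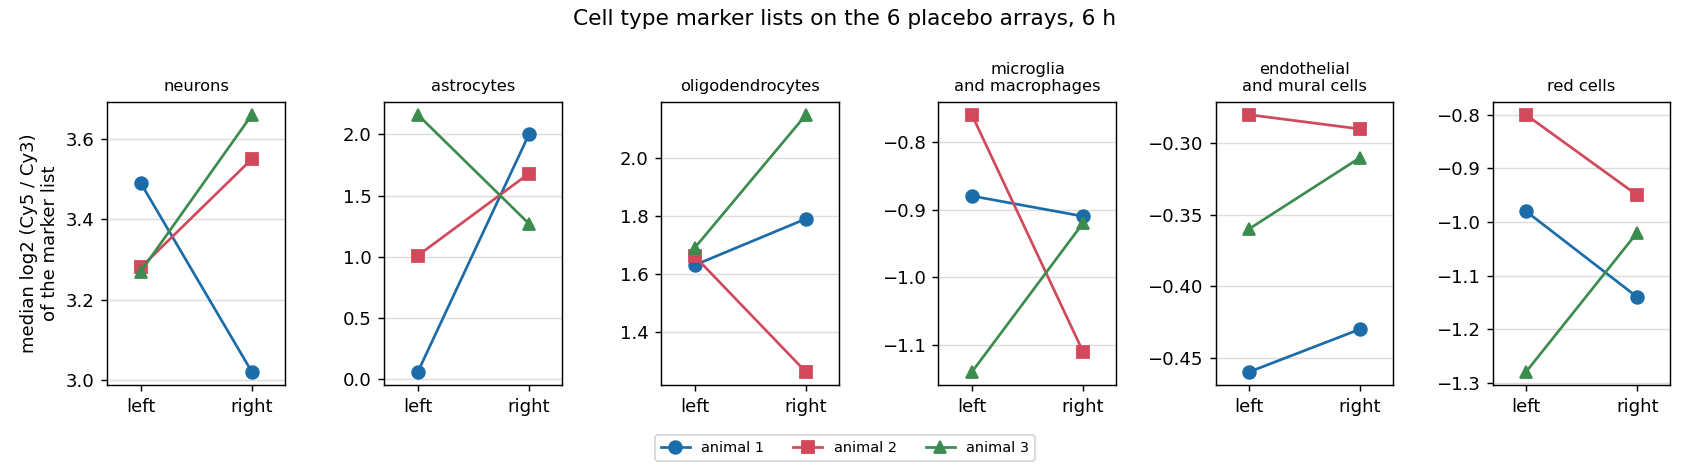
Median level (log2 Cy5 over Cy3) of 6 cell type marker lists in the left and right cortex of 3 placebo animals at 6 h, each panel on its own scale and lines joining the sides of an animal. The astrocyte list ran from 0.06 to 2.16 on the left arrays and from 1.27 to 2.0 on the right arrays, and animal 3 moved against animals 1 and 2.

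Glutamate receptors are the proteins through which ischemic glutamate acts, and their transcripts were tested gene by gene. GRIN1, the obligatory NMDA receptor subunit, stood at 2.81, 2.86 and 3.09 on the left and at 2.58, 3.7 and 3.46 on the right. GRIN2A and GRIN2B, the subunits that bind glutamate, differed by 0.05 ± 0.37 and −0.21 ± 0.26, and GRIN2B turned to 1.14 with the processed signals. The groups overlapped in these 3 genes. Of 28 measured genes of the NMDA receptor and PSD-95 complex 1 was higher (3.57%, against 8.75% of all genes) and 5 were lower (17.9%, near the 16.7% of all genes) in 3 of 3 animals, with a median of −0.08. On slide 4 GRIN1 and GRIN2A turned to −0.28 and −0.08.

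NOS1 and NLGN1 were among the 4 members of that list (14.3%, against 8.39% of all genes) whose right arrays all lay below the left arrays. NOS1, the neuronal nitric oxide synthase held near the NMDA receptor by PSD-95, stood at 0.92, 0.59 and 0.46 on the left and at 0.02, 0.35 and 0.11 on the right. Its mean difference was −0.5 ± 0.14 (SE, unadjusted p = 0.00455, limma adjusted p = 1). NLGN1, an adhesion protein of excitatory synapses, stood at 2.39, 2.11 and 2.49 on the left and at 1.71, 1.28 and 1.88 on the right, a mean of −0.71 ± 0.31. The largest right value was below the smallest left value in both genes.

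GRIA1, a subunit of AMPA receptors, had levels of 1.95, 1.02 and 1.26 on the left and of 0.93, 0.45 and 0.83 on the right. The groups did not overlap, and the difference was −1.02, −0.58 and −0.43 in the 3 animals, with a mean of −0.67 ± 0.17 (SE, unadjusted p = 0.00219, limma adjusted p = 1). It stayed below 0 in 24 of 24 alternative settings, between −1.22 and −0.09, the latter with slide as a block, where slide 4 alone holds both sides. GRIA4, another AMPA subunit, differed by −1.75 in animal 1 and by −0.18 in each of the others. Of the 19 AMPA, kainate and metabotropic receptor genes none was higher and 4 were lower (21.1%, against 16.7% of all genes) in 3 of 3 animals, and the list lay at −0.61, 0.08 and 0.02 in the 3 animals.

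Ion channels and inhibitory receptors gave most of their lower values in animal 1. SCN3B, a beta subunit of neuronal sodium channels, stood at 3.48, 2.44 and 2.5 on the left and at 2.4, 1.73 and 1.97 on the right, a mean of −0.77 ± 0.24 with groups that did not overlap. On slide 4, however, it differed by only −0.03, and on scan day 3 by −0.4. SCN3A, a pore subunit, differed by −1.65, −0.91 and −0.04, and KCNA4, a potassium channel of axons, by −1.73, −1.09 and −0.02. GABRB1, a GABA-A receptor subunit, differed by −1.25, −0.09 and −0.21. Of 48 voltage-gated channel genes 4 were higher (8.33%, against 8.75% of all genes) and 9 lower (18.8%, against 16.7%) in 3 of 3 animals. Of 14 GABA receptor genes 1 was higher (7.14%) and 2 were lower (14.3%), so both lists were near the shares of all genes. RAB3B, a small GTPase of synaptic vesicles, differed by −0.64 ± 0.21, and BDNF, a growth factor made by active neurons, by −0.66 ± 0.46 with left 2 highest at 2.03.

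Cytosolic ribosomal proteins, the protein part of the ribosome, were the list that lay lowest as a whole. Of 52 genes measured 34 were lower and none was higher in 3 of 3 animals, where 16.7% and 8.75% of all genes were, and 24 had all right arrays below all left arrays (8.39% of all genes). The list lay at −0.57, −0.27 and −0.36 in animals 1, 2 and 3, with a median of −0.44 against −0.05 for all genes, and 49 of the 52 mean differences were below 0 and 3 above it, where 39.2% of all genes were above 0. At an unadjusted p under 0.05 there were 12 lower and 0 higher, and none passed the limma adjusted p. The list also lay at −0.3 in placebo animals at 1 h, and it was chosen with such results known.

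RPS19, a protein of the small ribosomal subunit, stood at −0.3, −0.8 and −0.77 on the left and at −1.2, −1.71 and −1.55 on the right. All right arrays lay below all left arrays, and the mean difference was −0.87 ± 0.38 (SE, unadjusted p = 0.0428, limma adjusted p = 1), with −0.4 on slide 4. RPL11, of the large subunit, stood at 0.14, −0.42 and −0.61 on the left and at −1.01, −1.26 and −1.2 on the right, a mean of −0.86 ± 0.32. RPL7, also of the large subunit, stood at 2.77, 1.84 and 1.62 on the left and at 1.35, 0.82 and 1.26 on the right, and turned from −0.93 to 0.01 with the processed signals. Ribosomal protein genes have many processed copies in the genome, which a probe may read as well.

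The median of the ribosomal list was −0.32 without animal 1, −0.49 without animal 2 and −0.42 without animal 3. Without animal 1, 37 genes were lower in both remaining animals (71.2%, against 26% of all genes), without animal 2 it was 41 (78.8%, against 29.1%) and without animal 3 it was 38 (73.1%, against 35.6%). The 34 genes lower in 3 of 3 animals enter each of these counts, so the counts are no separate check. On slide 4 the median was −0.24, with 42 of 52 genes below 0, and on scan day 3, with 3 right arrays against left 2, it was −0.3, with 44 below 0. Of all 15954 genes, 8992 were below 0 on slide 4 and 8727 on scan day 3. In 24 of 24 alternative settings the median was below 0, between −0.52 and −0.15. The smallest size came from Cy5 alone, where the median of all genes was 0.03.

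**Figure D4:**
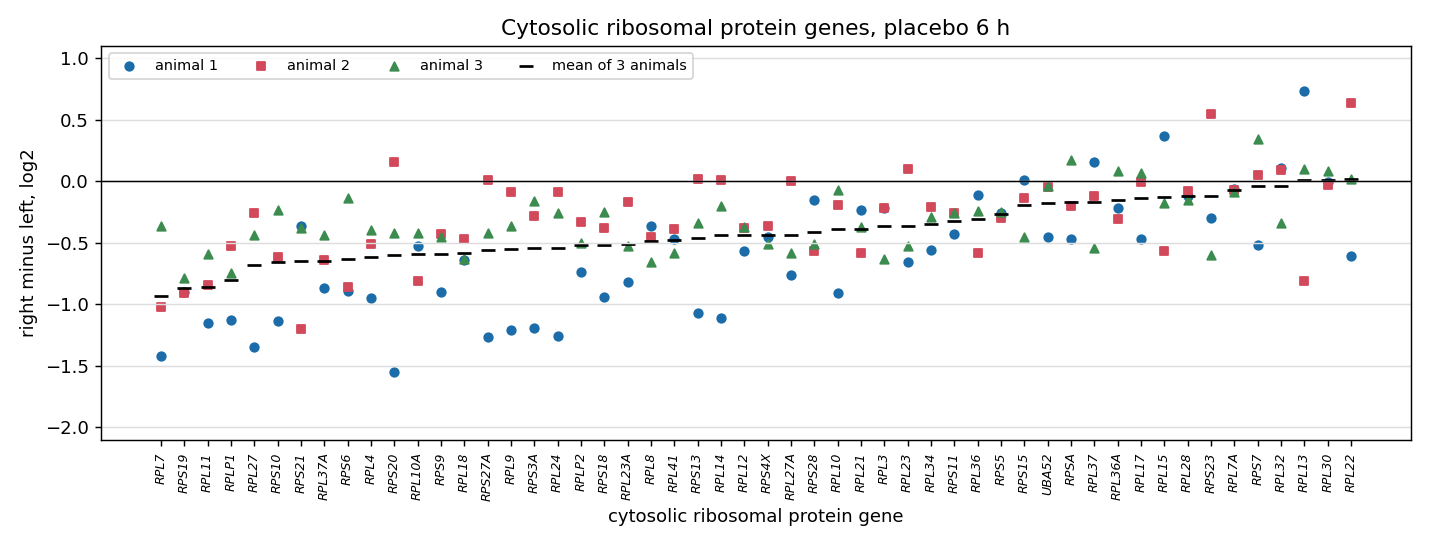
Right minus left difference (log2) of 52 cytosolic ribosomal protein genes in each of 3 placebo animals at 6 h, in the order of the mean difference shown as black bars. The mean was below 0 for 49 genes, and animal 1 reached the lowest values.

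Other lists of protein and energy metabolism had medians closer to that of all genes. Of 56 subunits of oxidative phosphorylation, the mitochondrial respiratory chain and its ATP synthase, 3 were higher (5.36%, against 8.75% of all genes) and 18 lower (32.1%, against 16.7%) in 3 of 3 animals, 10 of the latter with groups that did not overlap (17.9%, against 8.39%). That list lay at −0.54, −0.13 and 0.04 in the 3 animals, with a median of −0.14 that was below 0 in 24 of 24 alternative settings. COX7C, a subunit of cytochrome oxidase, stood at 1.14, 0.56 and 0.93 on the left and at 0.34, 0.41 and 0.51 on the right, a mean of −0.46 ± 0.18, with −0.22 on slide 4. UQCRH and UQCRQ, subunits of complex III, differed by −0.51 ± 0.25 and −0.55 ± 0.28, most of it in animal 1.

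Mitochondrial ribosomal proteins had 4 of 68 genes higher (5.88%) and 10 lower (14.7%) in 3 of 3 animals and a median of −0.06. MRPL3, one of them, differed by −0.53 ± 0.17, with −0.23 on slide 4. Proteasome subunits, which degrade tagged proteins, had 0 of 36 higher and 9 lower (25%, against 16.7% of all genes), 6 with groups that did not overlap (16.7%, against 8.39%), and a median of −0.06. PSMB9 and PSME2, which serve the immunoproteasome, differed by −0.78 ± 0.57 and −0.54 ± 0.29, and PSME2 by −0.01 on slide 4. B2M, the light chain of class I antigen presentation, stood at −1.75, −2.15 and −2.64 on the left and at −2.72, −3.18 and −2.93 on the right, with groups that did not overlap.

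At least a 2-fold mean difference with the same sign in 3 of 3 animals was found in 5 genes higher on the right (0.0313%) and 227 lower (1.42%). The 12 highest named genes that were well above background on all 6 arrays, with at least 0.3 in each animal, were MYOC, TRDN, HPGD, SLC7A13, OBP2A, B3GNT5, RAB6B, PDK4, C9ORF87, HOXA4, LRIG3 and NEFH. MYOC, a secreted glycoprotein known from the eye, stood at −2.6, −2.46 and −1.15 on the left and at −0.72, −1.41 and −0.65 on the right, a mean of 1.14 ± 0.27 (SE, unadjusted p = 0.00147, limma adjusted p = 1). Its groups overlapped through left 3. PDK4, a kinase that slows the entry of pyruvate into mitochondria, stood at −3.53, −2.73 and −3.45 on the left and at −2.53, −2.04 and −2.71 on the right, and did not overlap. RAB6B, a neuronal GTPase of Golgi transport, stood at 3.08, 3.25 and 3.74 on the left and at 4.11, 4.23 and 4.17 on the right, and NEFH, the heavy neurofilament chain, at 2.94, 2.7 and 2.91 on the left and at 3.37, 3.01 and 4.38 on the right. The 12 mean differences ran from 0.74 to 1.14. On slide 4 the differences of HPGD, SLC7A13, OBP2A, B3GNT5 and PDK4 were 0.29, 0.27, 0.31, 0.28 and 0.2. In Cy5 alone 7 of the 12 genes turned sign, and RAB6B, HOXA4, MYOC, SLC7A13 and NEFH did not.

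The genes with the smallest unadjusted p were not among these. Higher on the right were PGGT1B, a subunit of a protein prenyltransferase, by 0.6 ± 0.1 (unadjusted p = 0.000129, limma adjusted p = 0.936), ACADL, SART2, GIMAP7 and CCL2. PGGT1B, ACADL and GIMAP7 turned sign in Cy5 alone. Lower on the right were MCF2L2, CXCL16, TADA3L, PGBD4 and NSUN6. MCF2L2, a guanine nucleotide exchange factor, stood at 2.21, 1.46 and 1.11 on the left and at 0.96, 0.54 and 0.59 on the right, a mean of −0.9 ± 0.15 (unadjusted p = 9.83e-05, limma adjusted p = 0.936), without overlap. CXCL16, a chemokine that is also a scavenger receptor, differed by −0.86, −0.62 and −0.38, with overlapping groups. On slide 4 TADA3L differed by −0.22 and PGBD4 turned to 0.07.

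The 12 lowest genes were transcripts known from liver, pancreas and muscle rather than from cortex. Among them were FGA, C9, AMY2B, ACTA1, CPB1, F2, PLG, FGG, GSTA1, MYH1 and SERPINC1, with mean differences from −2.64 to −2.37, and in each of these all right arrays lay below all left arrays. FGA, the alpha chain of fibrinogen, stood at −2.76, −4.36 and −5.82 on the left and at −6.5, −7.16 and −7.2 on the right, a mean of −2.64 ± 1.37 (SE, unadjusted p = 0.0817, limma adjusted p = 1). PLG, plasminogen, stood at −2.17, −3.12 and −4.46 on the left and at −5.06, −6.2 and −5.87 on the right. AMY2B has near-identical amylase copies that the probe may read as well. Left 1 was the highest array and left 3 the lowest left array in these genes.

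The reference channel was bright for such genes. FGA gave Cy3 brightness of 164000, 86100 and 112000 on the left and of 57300, 80000 and 91600 on the right, and Cy5 brightness of 32400, 6410 and 6730 on the left and of 2260, 925 and 927 on the right. Genes were also grouped by their mean level on the TatNR2B9c arrays, which give no value to the right-left differences of the placebo animals. In the 160 genes of lowest level, between −5.39 and −3.56, 83.8% were lower in 3 of 3 animals, and the medians were −1.74, −1.49 and −0.57. In the next 638 genes 53.8% were lower in 3 of 3 animals, and in the 3988 genes between −0.43 and 0.02 it was 8.95%. The cause of this gap was not tested.

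Several genes named above share this low level. TTR, the thyroxine carrier made by choroid plexus and liver, differed by −2.21 ± 0.76, and SERPING1, an inhibitor of complement, by −1.69 ± 0.71. CD74, HLA-DRA, HBB, IL1RN, B2M and PSMB9 belong with them. SERPING1 stood at −1.68, −2.19 and −3.09 on the left and at −3.69, −4.32 and −4.02 on the right, so its left arrays followed the order of the FGA arrays. The ribosomal list had a median level between −0.83 and −0.16 on the 6 arrays. Whether its lower values on the right have the same origin as those of the genes of low level was not tested.

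**Figure D5:**
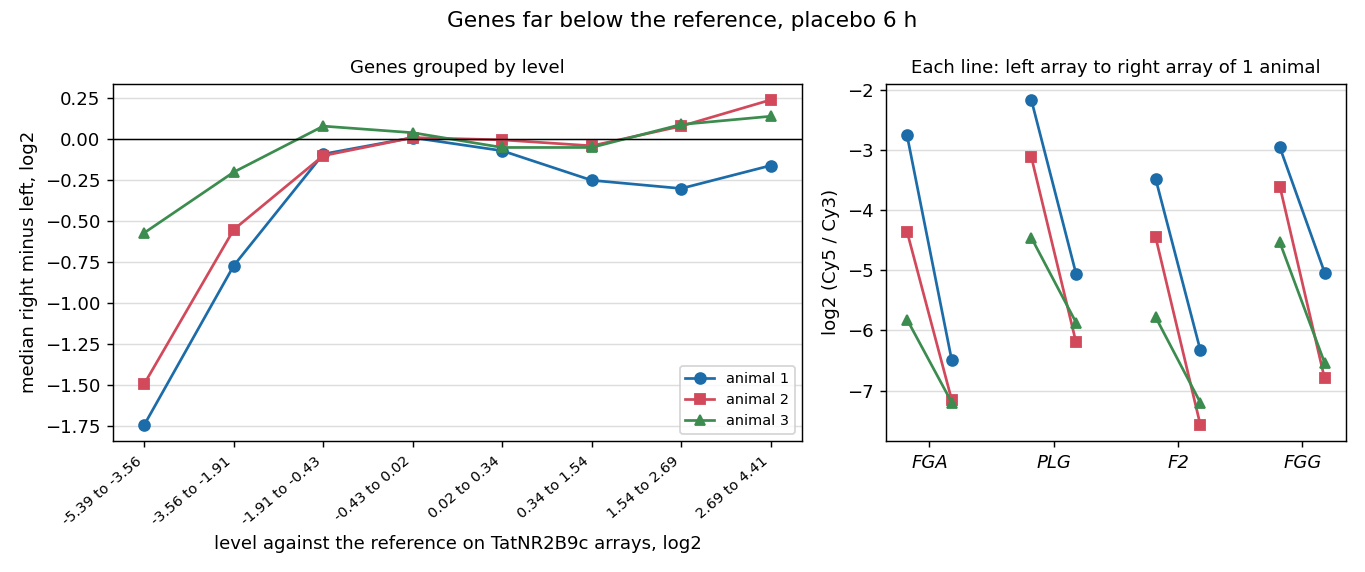
Median right minus left difference of genes grouped by their mean level against the reference on the TatNR2B9c arrays, and levels of FGA, PLG, F2 and FGG on the left and right array of each placebo animal at 6 h (log2 scales). The group of lowest level lay at −1.74, −1.49 and −0.57 in animals 1, 2 and 3, while the groups of middle level lay near 0.

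At 1 h, in 3 other placebo animals, 3 of the 34 genes named as highest, lowest or of smallest unadjusted p at 6 h had their 6 h direction in 3 of 3 animals and 3 had the opposite one. The former were MYOC, OBP2A and CXCL16, with MYOC at 0.72, 0.06 and 0.21, and the latter TRDN, PGGT1B and SART2. The shares of all genes with such signs at 1 h were not computed, so these counts show no trait of the named genes. By limma, 0 of 15954 genes (0%) differed in their right-left difference between 6 h and 1 h, with 410 at an unadjusted p under 0.05 (2.57%). CCL2 differed by 0.04, −0.13 and −0.23 in the 1 h animals against 1.75, 0.64 and 1.02 at 6 h (unadjusted p = 0.00532 for the difference, limma adjusted p = 1). FGA was at −6.1, 0.87 and 3.5 at 1 h (unadjusted p = 0.311). The ribosomal list lay at −0.28, 0.24 and −0.58 and the immediate early genes at −0.05, −0.09 and 0.14. The 1 h arrays were extracted with another software version and scanned on another day, so time cannot be told apart from these. In Cy3, 18%, 15.7% and 22.2% of probes were well above background on left 1, left 3 and right 3 at 1 h. That share was 50.7% to 51.7% on the other 1 h placebo arrays and 84.3% to 92.5% on the 6 h placebo arrays. Log ratios had an SD of 0.36 on left 1 and 1.06 on right 1 at 1 h. Whether this shaped the 1 h differences was not tested.

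In the 3 animals given TatNR2B9c and sampled at 6 h, 0 of 15954 genes (0%) differed from placebo in their right-left difference, with 658 at an unadjusted p under 0.05 (4.12%) and a smallest adjusted p of 0.883. The ribosomal list lay at 0.16, −0.05 and −0.13 under TatNR2B9c and at −0.57, −0.27 and −0.36 under placebo. All genes lay at 0.22, −0.01 and 4.7e-05 under TatNR2B9c and at −0.11, −0.03 and −0.0013 under placebo. The ribosomal list was thus below all genes in each animal of both sets. The immediate early genes lay at −0.25, 0.37 and −0.76 under TatNR2B9c, again without a common sign. CCL2 was at 0.65, 0.8 and −0.49 and FGA at 1.26, −0.55 and 1.31 (unadjusted p = 0.117 for the difference from placebo). Treatment cannot be told apart from scan day and software version.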

How the data were processed

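Cortical RNA was labelled directly on 2-colour Agilent arrays, 1 array per sample, with the sample in Cy5 and Universal Reference RNA in Cy3 per the labels, without a dye swap, so dye bias was not tested. The deposited intensities are each spot's mean brightness and local background median per channel, on a linear scale per the file headers. Per the file headers, the processed intensities had background and dye bias removed by the extraction software, which was Agilent Feature Extraction 10.5.1.1 for the placebo 6 h arrays, 9.5.3.1 for placebo 1 h and 10.7.3.1 for TatNR2B9c. The submitters' processing notes name 10.7.3.1. The deposited log10 ratio is processed Cy5 over Cy3 per the file headers, and flags of 0 or 1 mark other properties of a spot, such as being well above background. The deposited series matrix repeats those log10 ratios to within 0.005, which settles its direction and scale, with no further centring. Its medians were 0, 0 and 0.023 on left arrays 1, 2 and 3 and 0.004, 0.006 and 0 on right arrays.

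Here intensities were corrected with normexp (offset 50) and log2 ratios normalised by loess within arrays, control spots at weight 0. Of 41851 spots, 40434 read 20217 gene probes. Non-uniform spots were left out and spots of a probe averaged. Probes entered the test where, in Cy5, a share of at least 0.5 of their spots was flagged as above background throughout 1 or more of the 8 groups (17226 probes). The probe with the highest mean brightness stood for a gene, giving 15954 genes, 12796 with a symbol and 1041 with several probes. Symbols came from the array files, 6637 probes by the newest annotation, 9509 only by the oldest and 4071 with none, and the 2 names disagreed for 1047 of 5781 probes that had both. No genome was used.

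Right and left were compared by a moderated two-sided limma test (limma 3.58.1, R 4.3.3, Benjamini-Hochberg adjustment) on all 24 arrays, with 12 animals as a block and 1 right-left term per set of 3 animals, leaving 8 residual degrees of freedom. The other sets add to the estimate of spread alone. Pairs come from the animal numbers in the titles. Deviations from the group means correlated at −0.2, −0.11 and −0.08 within the 3 pairs, so the data do not show the pairing, and fits without it are given among the alternatives. The fit was tested on simulated data, where it also called 8 of the unaltered genes.

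The arrays, gene lists and named genes were chosen with earlier results of these data known, and lists were described by counts and medians without a test. Named genes were, by rule, the 12 highest and 12 lowest with the same sign in 3 of 3 animals and at least 0.3 in each, the 5 smallest p in each direction, genes with an adjusted p under 0.05, and from each list the first 4 and the 3 largest of the same sign, and exceptions are marked. Precision is limited by 3 animals a side.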

Additional observations from a re-analysis of the deposited data

Results flagged for a closer look

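The antioxidant enzymes and metallothioneins, 24 genes that remove oxygen radicals or bind metals, had a median right-left difference of −0.11 in placebo animals at 6 h and of −0.0017 in animals given TatNR2B9c. The list's median lay below 0 in each placebo animal (−0.22, −0.01 and −0.06) and above 0 in each TatNR2B9c animal (0.08, 0.02 and 0.01), although the median of the members' mean differences was itself just below 0 under TatNR2B9c. The median of all genes was −0.11, −0.03 and −0.0013 in the placebo animals and 0.22, −0.01 and 4.7e-05 in the TatNR2B9c animals. Against these, the list lay higher in placebo animal 2 and lower in TatNR2B9c animal 1. Only the other animals kept the contrast. The difference between the treatments was not tested. The list had a median level between −1.98 and −1.67 on the 6 placebo arrays. Whether its placebo values share an origin with those of the genes of low level was not tested either. The placebo median was 0.02 with the software's processed signals.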

How the results depend on the processing

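Over 24 alternatives the number of genes with an adjusted p under 0.05 for right against left was 0 in 23, while those with an unadjusted p under 0.05 ran from 50 (arrays scaled to equal spread) to 1301. Of the 88 genes whose differences are described, 59 kept their sign in every alternative that gave a value. Without the replicate block 0 genes passed on 24 arrays (617 unadjusted), and on the 6 placebo 6 h arrays alone 0 passed with the block (1061 unadjusted) and 0 without it (1301). With each animal on both sides, the block leaves the mean differences as they are. Without left array 2, in the fit without pairing, 3 genes passed, ACADL (0.69), TADA3L (−0.9) and an unnamed probe, with a smallest adjusted p of 0.0349 among the genes described. In Cy5 alone the contrast of placebo with TatNR2B9c gave 1 gene, RPS23.

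With the processed signals, medians were 0.02 for antioxidant enzymes and metallothioneins, 0.13 for GABA receptors, 0.19 for voltage-gated channels, 0.28 for presynaptic vesicle release, 0.21 for neurofilaments and microtubule proteins, 0.04 for translation factors and 0.01 for all genes. ACADL turned to −0.02, GIMAP7 to −0.44, IFIH1 to −0.57, MAP2 to 0.63, GRIN2B to 1.14 and RPL7 to 0.01. The authors' series matrix gave the same values but for neurofilaments (0.22), MAP2 (0.64) and GRIN2B (1.15). Median centring put neurofilaments at 0.17 and translation factors at 0.0019, equal spread put neurofilaments at 0.18 and ribosomal proteins at −0.26, and array weights put GFAP at −0.12.

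In Cy5 alone, medians were 0.06 for endothelial and mural cells, 0.16 for endoplasmic reticulum stress, 0.06 for antioxidant enzymes, 0.28 for neurofilaments, −0.15 for cytosolic and 0.05 for mitochondrial ribosomal proteins, 0.002 for translation factors, 0.04 for the proteasome and 0.03 for all genes. TRDN turned to −0.00019, HPGD to −0.09, OBP2A to −0.94, B3GNT5 and PDK4 to −0.14, C9ORF87 to −0.07, LRIG3 to −0.13, PGGT1B and ACADL to −0.03, GIMAP7 to −0.23, IFIH1 to −0.26, IFI44 to −0.16, GRIN2A to −0.33, CSF3 to 0.31 and GRIN2B to 0.21. With slide as a block, without pairing, medians were 0.23 for meninges, −1.44 for immediate early genes, 0.25 for glycolysis, −0.24 for ribosomal proteins and 0.0034 for translation factors, PGBD4 turned to 0.07, IL6 to −1.78, GRIN1 to −0.28 and GRIN2A to −0.08. With scan day as a block endoplasmic reticulum stress lay at −0.15, IL6 at −0.82 and GRIN2B at 0.1.

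Leaving out each animal in turn gave ranges of −3.35 to 0.87 for FOS, −1.95 to 0.82 for NR4A1, −1.93 to 0.61 for DUSP1, −1.69 to 1.33 for RGS2, −1.96 to 0.22 for HSPA1A, −2.84 to 0.62 for ADM, −1.13 to 1.93 for IL6, −1.08 to 0.68 for CSF3, −1.32 to 0.55 for PTGS2, −0.45 to 0.53 for GFAP, −0.03 to 0.18 for GRIN2A and −0.5 to 0.05 for GRIN2B. It gave −0.16 to 0.04 for endothelial and −0.02 to 0.23 for neurofilament medians. Without single arrays and without pairing, left 1 gave neurofilaments 0.16 and GFAP −0.24, and right 1 gave neurofilaments 0.2, NR4A1 0.02, CSF3 0.18, PTGS2 0.08 and GFAP −0.21. Left 2 gave FOS 0.07, NR4A1 0.48, DUSP1 0.15, RGS2 0.74, HSPA1A 0.02, DNAJB1 0.05, ADM 0.19, CSF3 0.39, PTGS2 0.34, GFAP −0.09 and GRIN2A −0.01. Right 2 gave RGS2 0.27 and CSF3 0.18, left 3 gave neutrophils −0.2, and right 3 gave IL6 −0.8 and GRIN2A −0.05. The signs of FOS, DUSP1, HSPA1A, DNAJB1 and ADM turned without left 2 and with no other single array left out. The causes of these shifts were not tested. Dim signals limit CCL2, IFIH1, ACADL and GIMAP7, which were not well above background on every array.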

Other observations

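Among lists not described above, 3 lay on 1 side of 0 in each animal. Neurotrophic factors and their receptors, 31 genes, had medians of 0.06, 0.13 and 0.03 in animals 1, 2 and 3, with 4 genes higher (12.9%, against 8.75% of all genes) and 2 lower (6.45%, against 16.7%) in 3 of 3 animals. Neurofilaments and microtubule proteins, 22 genes, had medians of 0.0017, 0.19 and 0.12. Translation initiation and elongation factors, 39 genes, had medians of −0.05, −0.12 and −0.01. Of these genes 1 was higher (2.56%, against 8.75% of all genes) and 8 were lower (20.5%, against 16.7%) in 3 of 3 animals. The matrix proteases, their inhibitors and the plasminogen system, 23 genes, had medians of 0.1, −0.24 and 0.3, and glycolytic enzymes, 17 genes, of 0.15, −0.22 and −0.06. Interneuron transmitter and peptide genes, 17 genes, had medians of −0.68, −0.1 and 0.19.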
